A study of Homo sapiens with 36 samples.

Results

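The genes described here are 8 complement genes, C1R, C1S, C3, CFB, CFI, CD46, CD55 and CD59, out of 60725 Ensembl genes in the count tables. They were chosen from the measured levels (expected counts and TPM, transcript abundance scaled to a common total per library and corrected for transcript length) across the 18 groups of the study, so every call, fold change and count given for them below describes them and supports nothing further. Complement is a cascade of blood proteins that marks surfaces for removal. C1r and C1s are the paired serine proteases of the C1 complex that start the classical pathway, C3 is the central protein that is cleaved and deposited on surfaces, and factor B joins C3b to form the convertase of the alternative pathway. Factor I degrades deposited C3b and C4b, and host cells protect themselves with membrane proteins, CD46 as a cofactor for factor I, CD55 by taking convertases apart and CD59 by blocking the membrane attack complex. The liver makes most of the circulating proteins, while epithelial cells make several of them locally and in larger amounts under inflammatory cytokines, among them interleukin-6 family cytokines that act through STAT3.

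RNA-seq was performed on 36 libraries in 18 groups of 2, all of human breast cell lines that had received siRNA. ER-Src cells are MCF-10A, an immortalised, non-transformed mammary epithelial line, carrying v-Src fused to the ligand-binding domain of the estrogen receptor, which tamoxifen activates. They received control siRNA (Ctrli) or pools of siRNA against YAP1 (YAPi), WWTR1, the gene of TAZ (TAZi), STAT3 (STAT3i) or JUNB (JUNBi), and each of the 5 was profiled untransformed, in ethanol (ETH), and transformed, in tamoxifen (TAM). MDA-MB-231, a triple-negative breast cancer line, was profiled in 2 sets, the first with Ctrli, YAPi, TAZi, YAPi_TAZi (both siRNAs) and TEADi, the second with its own Ctrli, JUNBi and STAT3i. The labels give the transforming treatment as tamoxifen at 0.4 to 1 µM with AZD0530, an inhibitor of Src-family kinases, at 2 to 4 µM, and attach the same protocol to every sample, MDA-MB-231 included. The methods of the study give a short and a long treatment after transfection, with AZD0530 at the upper of these doses, and do not say which preceded RNA-seq or whether AZD0530 was in the ethanol cultures. Each cell line is a single culture stock, the fusion is v-Src rather than cellular Src, and nothing says that the 2 libraries of a group came from separate cultures, so p-values measure only the spread between these libraries.

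Totals of expected counts ranged from 6416159 to 19153233 in the 20 ER-Src libraries and from 7290495 to 18076140 in the second MDA-MB-231 set. In the first set the Ctrli libraries held 13456764 and 13534549 counts and the 8 knockdown libraries only 1411300 to 2784553. The knocked-down gene was lower in every ER-Src comparison, with fitted log2 fold changes from -2.66 for STAT3 in TAM to -1.16 for JUNB in ETH, the latter not past the threshold (DESeq2 adjusted p = 0.0637). STAT3i in TAM also lowered JUNB (-2.41 ± 0.16, DESeq2 adjusted p = 2.5e-47), where JUNBi gave -2.03 ± 0.35. In the first MDA-MB-231 set YAP1 was at -2.63 with YAPi and WWTR1 at -4.90 with TAZi. With TEADi, TEAD1, at a mean normalized count of 703.5, was at -0.82 ± 0.15 and TEAD3 at -1.62 ± 0.33. TEAD2 was at -4.30 ± 0.84 and TEAD4 at -6.34 ± 1.44, on mean counts of 57.6 and 57.1. TEAD3 was also lower with YAPi (-1.53), TAZi (-1.32) and YAPi_TAZi (-1.24). WWTR1 was also lower there with YAPi (-1.14) and TEADi (-0.89). In the second set JUNB was at -2.04 with JUNBi and STAT3 at -2.41 with STAT3i, the latter without an adjusted p from DESeq2. ER-Src libraries held basal keratins at high levels (KRT5 at 1012 to 2622 TPM), whereas KRT5 was at 0 in the Ctrli libraries of both MDA-MB-231 sets and between 0 and 11.5 TPM in the knockdown libraries of the first. The leukocyte gene PTPRC was at 0 to 0.08 TPM and the hepatocyte gene ALB at 0 to 0.36 TPM in all libraries. Over whole lists, 8 macrophage and leukocyte genes summed to 6.94 to 16.9 TPM in the ETH and 8.31 to 29.3 TPM in the TAM libraries of ER-Src cells, and to 155 to 159 TPM in the Ctrli and 27.3 to 79.2 TPM in the knockdown libraries of the first MDA-MB-231 set, with PTPRC, CD163, TYROBP and FCGR3A at 0 in the latter. Of 6 endothelial and fibroblast genes, summing to 30.3 to 180 TPM in the ETH and 42.2 to 260 TPM in the TAM libraries of ER-Src cells, only the fibroblast gene DCN (decorin) reached 1 TPM. DCN stood at 64.4 and 67.3 TPM in Ctrli TAM cells, 203 and 259 TPM with YAPi, 203 and 209 TPM with TAZi, 51.2 and 70.7 TPM with STAT3i and 41.4 and 48.2 TPM with JUNBi, and was likewise higher in ETH with YAPi (146 and 180 TPM) and TAZi (137 and 154 TPM) than with Ctrli (58.2 and 60.6 TPM). Some of the 8 genes were also higher in the YAPi and TAZi libraries. With JUNBi DCN was lower than with Ctrli, and 4 of the 8 genes were called higher with JUNBi in TAM. The part of these lists in the results was not tested.

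For CFB and C1R, whose RNA moved most with tamoxifen, and for CD59, the 250 bases before a start site of each are shown from RefSeq (GRCh38.p14). The gene totals used here do not show which start was in use. Of the 8 genes, 6 have such an entry here. Capitals mark matches to 3 of 4 words searched on both strands: TTCNNNGAA, the spaced palindrome bound by STAT factors, TGANTCA, bound by AP-1, and GGAATG, bound by TEAD factors.
CFB, chr6:31945845-31946094, plus strand: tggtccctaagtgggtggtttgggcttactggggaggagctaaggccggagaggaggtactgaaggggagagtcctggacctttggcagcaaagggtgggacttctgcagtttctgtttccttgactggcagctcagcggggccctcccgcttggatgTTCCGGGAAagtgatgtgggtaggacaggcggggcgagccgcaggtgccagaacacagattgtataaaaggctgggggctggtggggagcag
C1R, chr12:7092446-7092695, minus strand: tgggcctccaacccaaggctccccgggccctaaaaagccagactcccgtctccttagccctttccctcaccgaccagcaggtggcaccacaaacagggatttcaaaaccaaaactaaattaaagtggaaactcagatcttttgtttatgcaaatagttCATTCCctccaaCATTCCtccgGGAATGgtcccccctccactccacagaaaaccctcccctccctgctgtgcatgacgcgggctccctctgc
CD59, chr11:33736480-33736729, minus strand: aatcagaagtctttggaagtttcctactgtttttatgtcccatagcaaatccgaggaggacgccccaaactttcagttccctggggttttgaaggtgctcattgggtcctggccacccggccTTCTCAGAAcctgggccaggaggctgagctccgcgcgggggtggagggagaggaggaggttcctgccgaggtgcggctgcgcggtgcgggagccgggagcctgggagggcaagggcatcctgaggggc
The CFB window held a STAT word, TTCCGGGAA, 92 to 84 bases before the start, and the CD59 window held TTCTCAGAA, 128 to 120 bases before it. The C1R window held 3 TEAD words within 28 bases, CATTCC at 92 to 87 and at 80 to 75 and GGAATG at 70 to 65 bases before the start. A second, inner start of C1R had a STAT word instead, and an inner start of CD59 had 2 AP-1 words. None of these 3 words stood in the windows of CFI, CD46 or CD55. The fourth word, a loose form of the NF-kB site, is not marked, since 54.4% of all windows held it, and it had matches in windows of CFB, CD59, C1R, CD46 and CD55. Of 35116 such windows, 6.57% held the STAT word, 6.57% the AP-1 word and 11.9% the TEAD word, and 29 of them, 0.0826%, held 3 or more TEAD words. A match is a run of letters and does not show that a factor binds there.

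The C1 proteases sit tail to tail on chromosome 12, C1S at chr12:6988259-7071032 on the plus strand and C1R at chr12:7080214-7092540 on the minus strand, 9181 bases apart. CD55 (chr1:207321519-207386804) and CD46 (chr1:207752037-207795513), both on the plus strand of chromosome 1, are 365232 bases apart. C3 is at chr19:6677704-6730562 (minus), CFB at chr6:31945650-31952086 (plus), CFI at chr4:109731008-109802150 (minus) and CD59 at chr11:33703010-33736479 (minus). In the GENCODE annotation 7 of the 8 overlap another gene on the same strand: CFB the end of C2 and a readthrough gene, C1R its relative C1RL, C3 the gene GPR108, CFI, CD59 and C1S a further protein-coding gene each, and CD46 a pseudogene. These overlaps are those of GENCODE v44, and whether the annotation used for counting held the same genes was not checked. Where it did, reads in those stretches could be split between the genes. Counts of such genes are then less certain than those of CD55.

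In untransformed Ctrli cells the 8 genes spanned a wide range of levels, on the TPM scale, which corrects for transcript length. CD59, at 134 and 112 TPM in the 2 libraries, and C3, at 134 and 96.6 TPM, were highest, followed by CD46 at 97.6 and 85.9 TPM. CD55 (18.1 and 14.3 TPM), CFB (12.5 and 9.49 TPM) and C1R (8.45 and 7.49 TPM) came next, and C1S (4.45 and 3.70 TPM) and CFI (2.47 and 1.55 TPM) were lowest. C3 overlapped CD59 above it and CD46 below it, and no other neighbours in this order overlapped. Of 65 complement genes listed in all, 15 averaged at least 1 TPM in these libraries and 25 were at 0. Beside the 8 these included C1RL, PTX3, CLU, THBD, ITGB2 and C1QBP, and none of the 7 terminal pathway genes reached 1 TPM. Of 20 genes of classical and lectin initiation 4 reached 1 TPM, C1R, C1S, C1RL and PTX3, and 10 were at 0, and the C1q chains, C2, C4A and C4B were not among the 4 (the plot of Ctrli levels over 23 complement genes).

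**Figure D1:**
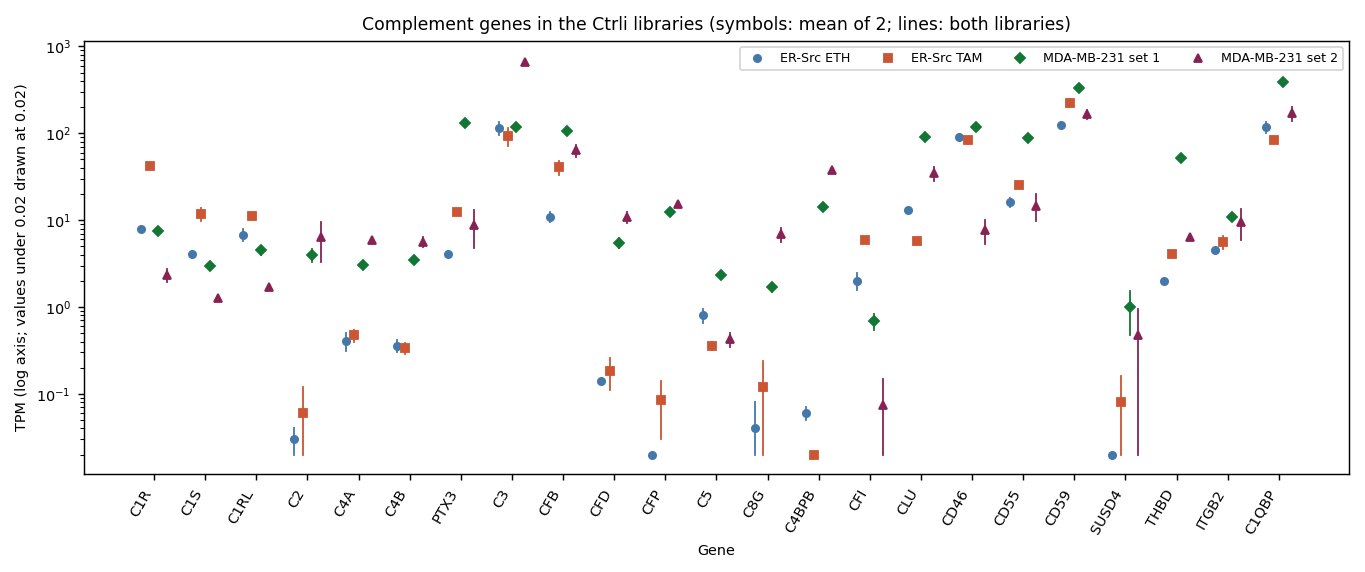
Mean TPM (symbols, log axis) of 23 of the complement genes that averaged at least 1 TPM in any of 4 Ctrli groups, with lines joining the 2 libraries of a group. CFP, CFD, C8G and C4BPB stood above 1 TPM in both MDA-MB-231 sets and under 1 TPM in ER-Src cells, and the first MDA-MB-231 set held CFI under 1 TPM.

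Tamoxifen raised 7 of the 8 genes in Ctrli cells at a DESeq2 adjusted p under 0.01, where 6.21% of 15724 tested genes were called, 726 of them higher and 250 lower. The median log2 fold change was 1.56 over the 8 genes and -0.01 over all tested genes. C1R went from 8.45 and 7.49 TPM in ETH to 43.8 and 40.0 TPM in TAM, with a fitted log2 fold change of 2.78 ± 0.13 (SE). C1S went from 4.45 and 3.70 to 13.8 and 9.87 TPM (2.16 ± 0.20), and CFB from 12.5 and 9.49 to 47.6 and 33.5 TPM (2.25 ± 0.18). For these 3 genes of activation no TAM library overlapped an ETH library. CFI, the soluble protease that inactivates C3b, rose from 2.47 and 1.55 to 5.55 and 6.14 TPM (1.87 ± 0.29). Among the membrane regulators CD59 rose from 134 and 112 to 246 and 204 TPM (1.24 ± 0.09) and CD55 from 18.1 and 14.3 to 25.6 and 24.7 TPM (1.05 ± 0.14), again without overlap. C3 was the exception, at 134 and 96.6 TPM in ETH and 114 and 71.9 TPM in TAM, overlapping, with a fitted value of 0.03 ± 0.12.

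CD46 depended on the scale. Its TPM was 97.6 and 85.9 in ETH and 85.7 and 80.3 in TAM, slightly lower in TAM, while its normalized counts (counts divided by DESeq2 size factors) were 5056 and 4976 in ETH and 6200 and 6400 in TAM, a fitted log2 fold change of 0.34 ± 0.09. The median log2 ratio of TPM between the TAM and ETH libraries over 10889 genes was -0.33, so TPM stood lower in TAM for the median gene. RSEM's gene length, an average over isoforms, differed as well. For CD46 it averaged 2004 bases in Ctrli ETH and 2450 in Ctrli TAM. Each of the 8 genes had a shorter mean length in Ctrli ETH, among them C1S (1576 against 2151) and C1R (2062 against 2360). A shorter length gives a higher TPM for the same count. The CD46 call was lost with edgeR (adjusted p = 0.0183), in the fit over all ER-Src groups (0.42), with effective length offsets (0.62) and without any single library of the 4 (0.19 to 0.36). The other 6 calls of this comparison held in each of these settings. Fewer cells that make an RNA and less RNA per cell cannot be told apart in these bulk libraries.

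**Figure D2:**
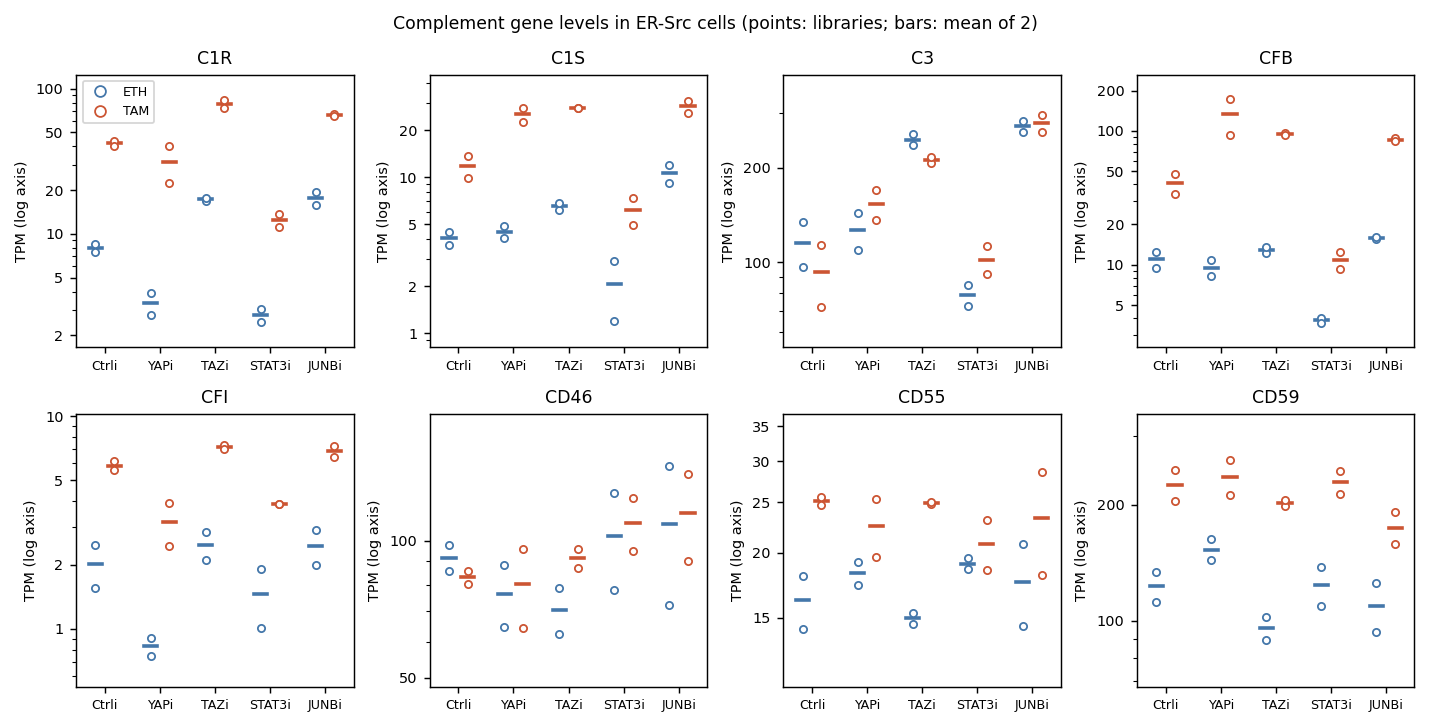
TPM (log axis) of each complement gene in the 20 ER-Src libraries (points, mean of 2 as bars), by siRNA and by ETH or TAM. C1R, C1S, CFB and CFI were higher in TAM than in ETH under all 5 siRNAs without overlap, and C3 overlapped between ETH and TAM in Ctrli cells.

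The knockdowns moved the genes of activation in 2 directions in TAM cells. STAT3i lowered 5 of the 8 genes and raised none (8.22% of all tested genes called), whereas YAPi raised 3 (10.7%), TAZi raised 4 (3.42%) and JUNBi raised 4 and lowered 1 (6.90%). The median log2 fold change over the 8 genes was -0.83 for STAT3i, 0.04 for YAPi, 0.47 for TAZi and 0.31 for JUNBi, against medians of at most 0.03 over all tested genes. In ETH cells STAT3i lowered 2 genes (0.189% called), YAPi lowered 1 and raised 1 (11.6%), TAZi raised 3 (5.24%) and JUNBi raised 3 (2.80%). The 4 comparisons within each treatment share the Ctrli libraries, so they are not independent of one another. Gene length less RSEM's effective length, which follows read or fragment length, was 49.0 bases in every STAT3i and JUNBi library of ER-Src cells. In the Ctrli, YAPi and TAZi libraries it was 49.47 to 49.49 bases. Knockdown and this library difference cannot be told apart in the STAT3i and JUNBi comparisons with Ctrli.

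**Figure D3:**
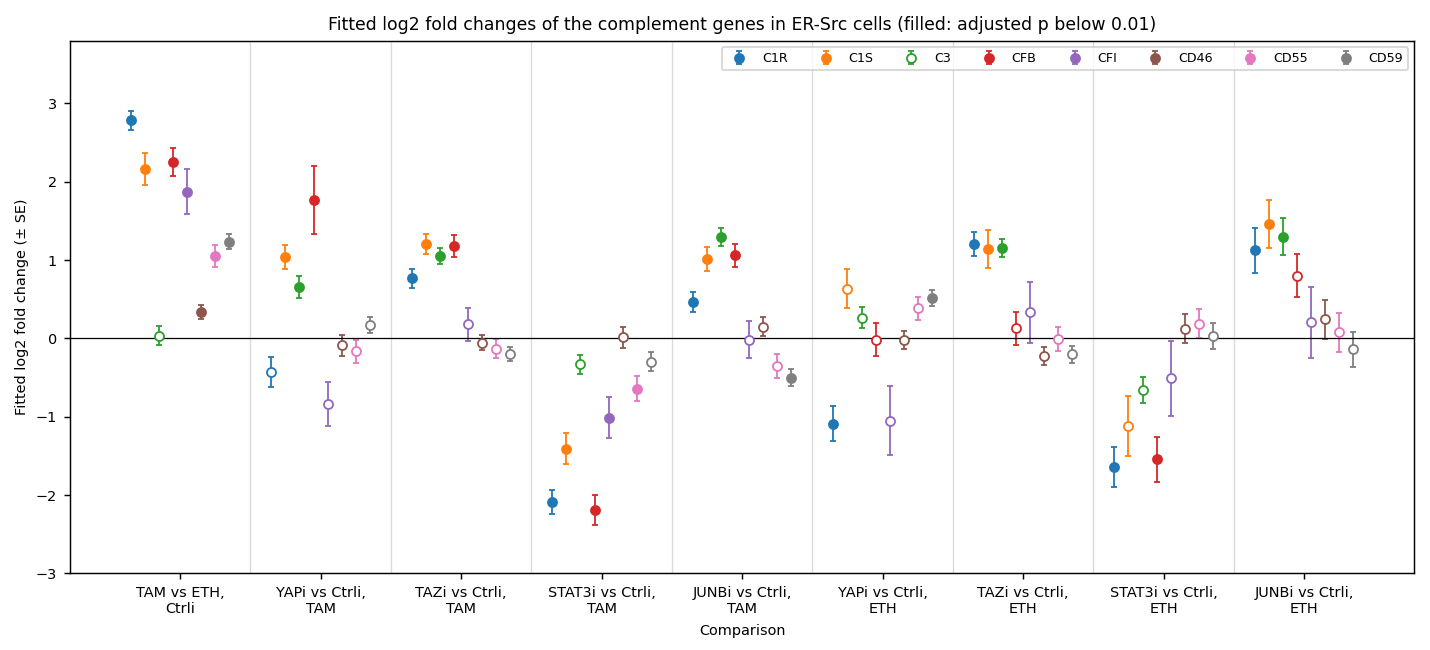
Fitted log2 fold changes (± SE) of the 8 genes in 9 ER-Src comparisons, filled where the DESeq2 adjusted p was under 0.01. In TAM the filled points of STAT3i lie below 0 for C1R, C1S, CFB, CFI and CD55, those of TAZi and JUNBi above 0 for C1R, C1S, C3 and CFB, with CD59 below 0 for JUNBi, and those of YAPi above 0 for CFB, C1S and C3.

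CFB, the zymogen that carries the catalytic part of the alternative pathway convertase, covered the widest span in TAM cells as a ratio of highest to lowest library. It stood at 47.6 and 33.5 TPM with Ctrli, at 174 and 92.5 TPM with YAPi, at 95.9 and 93.0 TPM with TAZi, at 88.8 and 83.4 TPM with JUNBi and at 12.5 and 9.36 TPM with STAT3i. Every library of the first 3 knockdowns was above both Ctrli libraries and every STAT3i library below them, while YAPi and TAZi overlapped and JUNBi lay just below them. The fitted log2 fold changes were 1.76 ± 0.43 for YAPi, 1.18 ± 0.14 for TAZi, 1.06 ± 0.14 for JUNBi and -2.19 ± 0.19 for STAT3i, all called. The STAT3i libraries in TAM lay at the level of untransformed Ctrli cells, 12.5 and 9.49 TPM. In ETH the spread was narrower, from 4.03 and 3.66 TPM with STAT3i (-1.55 ± 0.29, called) to 15.6 and 16.0 TPM with JUNBi (0.80 ± 0.28, adjusted p = 0.0677), with YAPi (10.8 and 8.19 TPM) and TAZi (12.2 and 13.7 TPM) near Ctrli. The YAPi call in TAM was lost without either Ctrli TAM library (adjusted p = 0.065 and 0.19). The STAT3i call in ETH was lost with edgeR (0.173) and without either Ctrli ETH library (1 and 1).

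C3 followed TAZi and JUNBi, and not tamoxifen in Ctrli cells. Its TPM in TAM and ETH also overlapped with YAPi and JUNBi. With STAT3i the mean in TAM was 1.3 times that in ETH and with TAZi 0.86 times, both without overlap. In TAM it stood at 114 and 71.9 TPM with Ctrli, 207 and 216 TPM with TAZi, 296 and 261 TPM with JUNBi and 170 and 136 TPM with YAPi, all 3 above Ctrli without overlap, and at 91.7 and 113 TPM with STAT3i, within the Ctrli range in TPM and below it in normalized counts (5870 and 6444 against 8441 and 7212). The fitted log2 fold changes were 1.06 ± 0.10, 1.30 ± 0.11 and 0.65 ± 0.14, called, and -0.33 ± 0.12 for STAT3i (adjusted p = 0.0524). In ETH C3 was again above Ctrli without overlap in TAZi, at 237 and 256 TPM (1.16 ± 0.11, called), and in JUNBi, at 261 and 283 TPM (1.30 ± 0.24, called). YAPi (144 and 110 TPM) overlapped Ctrli in ETH, and STAT3i (72.8 and 84.7 TPM) lay below it, with -0.65 ± 0.17 and an adjusted p of 0.0372 (called without STAT3i ETH replicate 2, adjusted p = 0.00016). The YAPi call in TAM was lost with edgeR (0.0242), without Ctrli TAM replicate 2 (0.049) and without YAPi TAM replicate 1 (0.027), and the JUNBi call in ETH with edgeR (0.0665) and without either Ctrli ETH library (0.053 and 0.28).

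In ER-Src cells the C1 proteases differed in direction with YAPi only, and the difference between them was not tested. With YAPi in TAM C1S rose, from 13.8 and 9.87 TPM with Ctrli to 27.9 and 22.7 TPM (1.04 ± 0.15), while C1R stood at 40.5 and 22.3 TPM against 43.8 and 40.0 TPM (-0.43 ± 0.19, adjusted p = 0.119). With YAPi in ETH C1R fell, from 8.45 and 7.49 to 3.92 and 2.77 TPM (-1.09 ± 0.23), while C1S was at 4.87 and 4.08 TPM against 4.45 and 3.70 TPM (0.64 ± 0.25, adjusted p = 0.0587). With the other knockdowns of ER-Src cells the fitted values of both had 1 sign. TAZi raised C1R to 83.8 and 73.2 TPM (0.77 ± 0.12) and C1S to 27.9 and 27.7 TPM (1.20 ± 0.13) in TAM. JUNBi brought them to 66.8 and 65.1 TPM (0.47 ± 0.13) and 31.0 and 25.9 TPM (1.01 ± 0.15), and STAT3i to 13.7 and 11.1 TPM (-2.09 ± 0.15) and 7.35 and 4.97 TPM (-1.41 ± 0.20). In ETH TAZi and JUNBi raised both (C1R 1.20 ± 0.16 and 1.12 ± 0.29, C1S 1.14 ± 0.24 and 1.46 ± 0.30), and STAT3i lowered C1R (-1.64 ± 0.26), with C1S at -1.12 ± 0.38 not called.

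Some of these calls rested on few libraries. The JUNBi call of C1R in TAM was lost in 7 of the other settings, among them edgeR (0.0329), without either Ctrli TAM library (0.18 and 0.23) and without JUNBi TAM replicate 2 (0.20), and the TAZi call of C1R in TAM with edgeR (0.0103) and in the fit over all groups (0.031). In ETH the calls of C1R and C1S were lost without either Ctrli ETH library for JUNBi (0.15 to 0.84), the C1R call for YAPi (0.033 and 0.046) and for STAT3i (0.22 and 0.65), and the C1S call for TAZi (0.052 and 0.12). The ETH call of C1R for YAPi was lost without YAPi replicate 2 as well (0.019), that of C1S for TAZi without either TAZi library (0.028 and 0.12) and with effective length offsets (0.69, adjusted p = 0.067), and edgeR did not call C1R for STAT3i (0.119) or for JUNBi (0.105) or C1S for JUNBi (0.0457). Without YAPi TAM replicate 1, C1R was called lower with YAPi in TAM (-0.80, adjusted p = 6.6e-05).

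The ratio of C1R to C1S within a library, both in TPM, put this in 1 number. It was 1.90 and 2.02 in Ctrli ETH and 3.19 and 4.06 in Ctrli TAM. With YAPi it was 0.805 and 0.679 in ETH and 1.45 and 0.98 in TAM, below the Ctrli ratio of the same treatment in all 4 libraries. TAZi gave 2.75 and 2.56 in ETH and 3.0 and 2.64 in TAM. In ETH these ratios also carry RSEM's gene length of C1S, on average 2358 bases with TAZi and 1576 with Ctrli. Mean normalized counts of C1R and C1S were 1040 and 386.2 in TAZi ETH and 449.2 and 173.9 in Ctrli ETH. The ratios with STAT3i (1.04 and 2.07 in ETH, 1.87 and 2.24 in TAM) and JUNBi (1.32 and 2.13 in ETH, 2.15 and 2.51 in TAM) spread more between libraries in ETH. The ratio of CFB to C3 moved from 0.093 and 0.098 in Ctrli ETH to 0.418 and 0.466 in Ctrli TAM, and stood highest in YAPi TAM, at 1.02 and 0.679, and lowest among TAM groups in STAT3i, at 0.136 and 0.083. These ratios are given as a description, with no test.

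**Figure D4:**
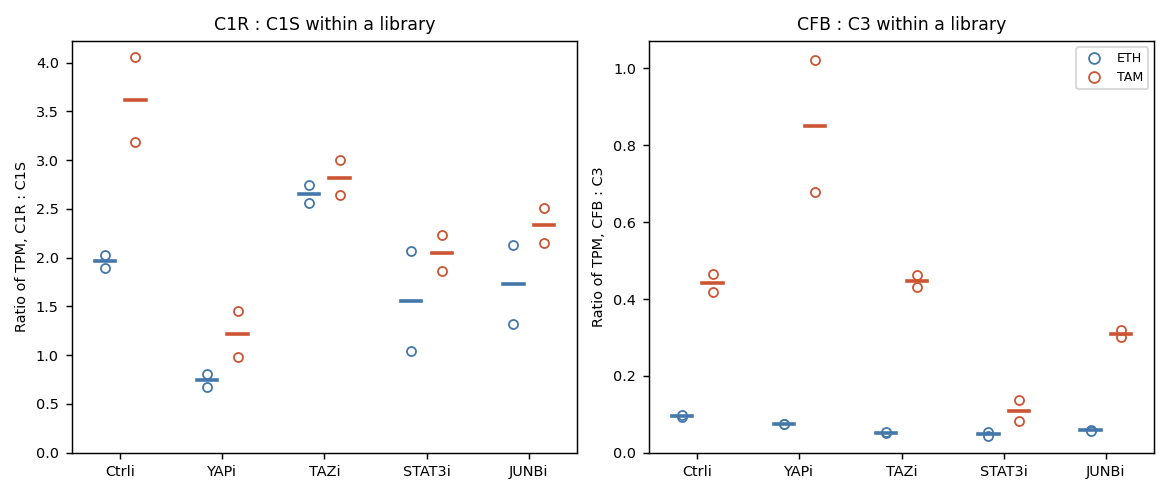
Ratios of TPM within each ER-Src library, C1R to C1S (left) and CFB to C3 (right), by siRNA and treatment (points are libraries, bars the mean of 2). The YAPi libraries have the lowest C1R to C1S ratio in each treatment and the highest CFB to C3 ratio in TAM.

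Of the regulators, CFI was low throughout, at 0.75 to 2.92 TPM in the ETH libraries and 2.44 to 7.31 TPM in the TAM libraries. STAT3i lowered it in TAM, from 5.55 and 6.14 to 3.87 and 3.88 TPM (-1.01 ± 0.26). YAPi libraries were at 3.90 and 2.44 TPM (-0.84 ± 0.28, adjusted p = 0.022), below both Ctrli libraries but not called. TAZi and JUNBi libraries, between 6.43 and 7.31 TPM, lay just above Ctrli, with fitted values of 0.18 ± 0.21 and -0.02 ± 0.24. No CFI call was made in ETH, where YAPi stood lowest at 0.91 and 0.75 TPM (-1.05 ± 0.44, adjusted p = 0.0821). The STAT3i call was lost with effective length offsets (0.012) and without any single library of its 4 (0.093 to 0.23).

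The membrane regulators moved less. CD55 fell with STAT3i in TAM on the normalized scale, from 1442 and 1590 to 1042 and 870.5 counts (-0.64 ± 0.16), and its TPM went from 25.6 and 24.7 to 23.1 and 18.6, without overlap on either scale. The median log2 TPM ratio of that comparison was 0.41. The CD55 call was lost without either Ctrli library (0.062 and 0.18) or STAT3i replicate 2 (0.12). CD59 fell with JUNBi in TAM, from 8878 and 8307 to 5896 and 6054 normalized counts (-0.50 ± 0.11), and rose with YAPi in ETH, from 3691 and 3667 to 5307 and 5290 (0.52 ± 0.10). The JUNBi call of CD59 was lost with edgeR (0.0161), without either Ctrli library (0.17 and 0.041) and without JUNBi replicate 1 (0.032), and the YAPi call without either Ctrli ETH library (0.058 and 0.068). CD46 was called in none of the 8 knockdown comparisons, with fitted values between -0.22 and 0.24, though without JUNBi ETH replicate 2 it was called higher with JUNBi in ETH (0.51, adjusted p = 0.00078). In TPM CD46 was higher in replicate 1 than in replicate 2 in 10 of 10 ER-Src groups, up to 146 against 72.1 TPM in JUNBi ETH. So were C1S, CD55 and CD59 in 9 of 10, C1R, CFB and CFI in 8 of 10 and C3 in 5 of 10. The order can differ in normalized counts, as for CD55 in Ctrli TAM (1442 in replicate 1 and 1590 in replicate 2). The part of this spread in the values of any of the 8 genes was not tested.

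Whether a knockdown changed the tamoxifen response itself was tested by the interaction of siRNA and treatment. CFB with TAZi was the only call among the 8 genes, at 1.03 ± 0.21 with an adjusted p of 0.00013, where 1.60% of tested genes were called. For CFB the mean TPM in TAM was 3.69 times that in ETH with Ctrli, 7.31 times with TAZi, 5.45 times with JUNBi, 2.84 times with STAT3i and 14 times with YAPi. The YAPi interaction was the larger, at 1.77 ± 0.46, and missed the threshold (adjusted p = 0.0192, 0.498% called), but passed it with effective length offsets (7.3e-07), with TMM size factors (2.1e-07), over all groups (3.8e-05), with the replicate block (3.4e-08) and without YAPi TAM replicate 1 (1.30, adjusted p = 9.1e-05) or replicate 2 (2.11, adjusted p = 8.6e-15), not with edgeR (0.102). The TAZi call was lost with edgeR (0.0676), with effective length offsets (0.013), over all groups (0.20), without Ctrli ETH replicate 1 (0.029) and without TAZi TAM replicate 1 (0.014). None of the 8 was called for STAT3i (1.34%) or JUNBi (0.288%, 46 calls over all genes and 100 with the block), but without JUNBi ETH replicate 1 C1R was called with JUNBi (-0.96, adjusted p = 0.00033). CD55 with STAT3i came nearest, at -0.85 ± 0.23 (adjusted p = 0.0115), and passed with the mean count filter (0.0076), over all groups (0.00029), with the replicate block (0.00188) and without STAT3i TAM replicate 1 (0.0032); the ratio of its mean TPM in TAM to that in ETH was 1.55 with Ctrli and 1.09 with STAT3i. C1R, C1S, CFB and CFI were still higher in TAM than in ETH, without overlap, under all 5 siRNAs.

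In the first MDA-MB-231 set 2 of the 8 genes were called with each knockdown, CFB lower and C3 higher with YAPi (24.4% of tested genes called), TAZi (32.8%) and YAPi_TAZi (35.6%), and C1R lower and C3 higher with TEADi (27.5%). Here the Ctrli libraries were several times deeper than every knockdown library. Gene length less RSEM's effective length, which follows read or fragment length, was 75.0 bases in both Ctrli libraries, 48.0 in every replicate 1 knockdown library and 74.6 in every replicate 2 knockdown library. The median log2 ratio of TPM to Ctrli lay between -1.5 and -1.4, so knockdown and library make-up cannot be told apart and normalized counts are used. CFB had 227.5 and 259.7 normalized counts with Ctrli, 37.0 and 54.9 with YAPi, 31.4 and 53.5 with TAZi and 46.7 and 75.4 with YAPi_TAZi, all far below Ctrli, and 212.7 and 173.9 with TEADi, just below it. The fitted log2 fold changes were -2.42 ± 0.29, -2.52 ± 0.30, -1.98 ± 0.22 and, for TEADi, -0.38 ± 0.21 (adjusted p = 0.148). The first 3 calls of CFB held in every other setting tried.

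Comparing each knockdown with the other 3, which were of like depth, removed the deep Ctrli libraries. CFB was higher with TEADi than with the others (2.00 ± 0.34, adjusted p = 6.9e-07, 1.87% called), the only call among the 8 genes there. It was lost without TEADi replicate 1 (1.51, adjusted p = 0.19). None was called for YAPi (0.619%), TAZi (0.320%) or YAPi_TAZi (1.13%), where CFB was at -1.12 ± 0.69, -1.26 ± 0.67 and -0.63 ± 0.71. The YAPi, TAZi and YAPi_TAZi comparisons each hold the high TEADi libraries on the other side.

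C3 in the first set changed direction with the scale. Its normalized counts were 488.4 and 495.4 with Ctrli and between 658 and 1093 in the knockdown libraries (0.50 to 1.07 in log2), whereas its TPM was 116 and 121 with Ctrli and 39.6 to 91.1 in the knockdowns. With effective length offsets C3 was at 0.18 for YAPi, 0.13 for TAZi and 0.23 for YAPi_TAZi in log2 and those calls were lost, and with the Ctrli libraries of both sets as controls all 4 turned negative (-0.07 to -0.62) and were not called. The YAPi and TAZi calls of C3 were also lost without either Ctrli library (adjusted p = 0.11 to 0.12). C1R had 30.6 and 36.7 normalized counts with Ctrli and 2.6 to 22.9 in the knockdowns, and its TEADi call (-2.12 ± 0.70) was lost with effective length offsets (0.016), over all groups (0.021), with the Ctrli libraries of both sets (0.06) and without either Ctrli library (0.20 and 0.31) or TEADi replicate 2 (0.097). Without YAPi replicate 1, C1R was called lower with YAPi (-3.74, adjusted p = 0.0044). C1S, with 6.5 to 26.5 normalized counts, and CFI, with 0 to 2.9, were near the limit of detection. Fitted values of C1S lay between 0.14 and 1.08, none called, opposite in sign to those of C1R, between -2.12 and -0.98. CD46, CD55 and CD59 were not called with any knockdown, with fitted values between -0.23 and 0.23, but CD59 was called lower with YAPi_TAZi under TMM size factors (-0.35, adjusted p = 0.0011) and without YAPi_TAZi replicate 2 (-0.36, adjusted p = 0.0047).

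None of the 8 genes was called in the second set, with JUNBi (3.41% called) or with STAT3i (0.497%), where DESeq2 gave an adjusted p to 5 and to 2 of them. With STAT3i only 2013 genes received an adjusted p. STAT3 itself (-2.41 ± 0.32) received none, so that fit could not call it. Before adjustment, DESeq2's p fell under 0.05 for CD46 alone with JUNBi (0.0467) and for none with STAT3i. With edgeR none was called and none had an unadjusted p under 0.05. CFB stood at 53.8 and 74.1 TPM with Ctrli, 49.4 and 52.1 TPM with JUNBi (-0.35 ± 0.25) and 54.9 and 37.0 TPM with STAT3i (-0.55 ± 0.28), the last overlapping Ctrli. C3 was at 622 and 690 TPM with Ctrli, 565 and 567 TPM with JUNBi and 706 and 582 TPM with STAT3i. The Ctrli libraries of both sets, nominally alike, differed in C3 (116 and 121 TPM in the first), in CD46 (125 and 113 TPM in the first, 9.93 and 5.28 TPM in the second) and in CD55 (87.4 and 89.1 against 19.8 and 9.72 TPM). RSEM's gene length for C3, an average over its isoforms, was 676 to 943 bases in the second set and 2377 to 2490 bases in the Ctrli libraries of the first, so TPM of C3 in the 2 sets cannot be compared as levels.

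**Figure D5:**
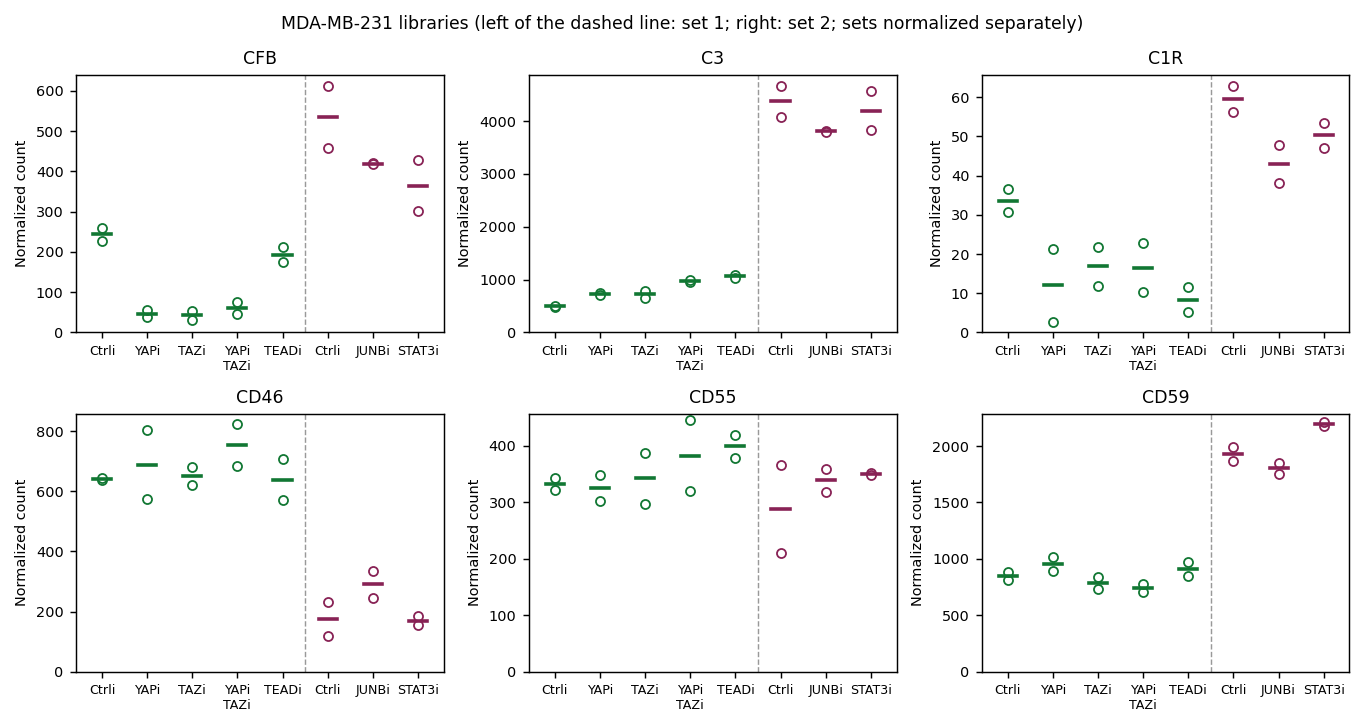
Normalized counts of 6 complement genes in the 16 MDA-MB-231 libraries (points are libraries, bars the mean of 2), each set normalized on its own. In the first set CFB is below Ctrli with YAPi, TAZi and YAPi_TAZi (31.4 to 75.4 against 227.5 and 259.7) and near it with TEADi, and in the second set no gene was called.

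The other 57 complement genes were mostly silent, and 12 to 21 of them received an adjusted p in the ER-Src comparisons of treatment or knockdown and in those of the first set with Ctrli. In Ctrli cells tamoxifen, with which 6.21% of all tested genes were called, raised 4 of 15 tested, among them PTX3, a soluble pattern receptor that binds C1q (1.80 ± 0.20, 4.04 to 12.3 TPM on average), THBD, thrombomodulin (1.22 ± 0.21), and C1RL, which overlaps C1R (0.93 ± 0.21). It lowered 1, CLU, clusterin, which binds terminal complexes (-0.99 ± 0.27). In TAM the knockdowns raised 2 of 16 tested with YAPi, 2 of 15 with TAZi, 1 of 14 with STAT3i and 4 of 12 with JUNBi, and lowered 0, 1, 2 and 1, where 10.7%, 3.42%, 8.22% and 6.90% of all tested genes were called in either direction. PTX3 rose in TAM with YAPi (2.03 ± 0.41), TAZi (1.27 ± 0.15) and JUNBi (1.36 ± 0.15), and THBD fell with TAZi (-1.07 ± 0.20), STAT3i (-1.47 ± 0.24) and JUNBi (-1.74 ± 0.23). C4B rose with TAZi (3.56 ± 0.74) and JUNBi (3.35 ± 0.74) in TAM from 0.34 TPM with Ctrli, and is nearly identical to C4A, so its reads are uncertain. C3AR1, a receptor of the C3a fragment, rose with YAPi in TAM (2.16 ± 0.48).

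In ETH, where the called share of all tested genes was 11.6% for YAPi, 5.24% for TAZi, 2.80% for JUNBi and 0.189% for STAT3i, PTX3 rose with YAPi (1.84 ± 0.53), TAZi (1.03 ± 0.22) and JUNBi (1.30 ± 0.29), and CLU fell with YAPi (-0.80 ± 0.25) and rose with TAZi (1.05 ± 0.19) and JUNBi (1.36 ± 0.27). With STAT3i none of 18 tested was called in ETH. In the first MDA-MB-231 set, with 24.4% to 35.6% of tested genes called, PTX3 fell with all 4 knockdowns (-1.02 ± 0.18 for TEADi to -3.64 ± 0.24 for YAPi_TAZi). ITGB2 fell with 3 of the 4, to -5.61 ± 1.41 with YAPi_TAZi, and CFP, properdin, with TAZi (-1.78 ± 0.49). PTX3 was also lower with YAPi_TAZi than with the other knockdowns (-2.06 ± 0.48) and higher with JUNBi in the second set (1.40 ± 0.37).

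Of 22 genes of the signals known to induce complement, 10 of 19 tested rose with tamoxifen in Ctrli cells and none fell, beside 6.21% of all tested genes called. SOCS3, the feedback target of STAT3, rose most (5.77 ± 0.18), and CEBPB (1.66 ± 0.48), CEBPD (1.64 ± 0.48) and the oncostatin M receptor OSMR (1.51 ± 0.15) rose with it. In TAM STAT3i lowered 5 of 19, SOCS3 (-3.74 ± 0.16) and STAT3 itself (-2.66 ± 0.14) among them, and raised IL1A, YAPi raised 7 and lowered SOCS3 (-0.51 ± 0.12), and TAZi raised 2, both of 19. The called share of all tested genes was 8.22% for STAT3i, 10.7% for YAPi, 3.42% for TAZi and 6.90% for JUNBi. JUNBi raised 6 of 20, IL6 from low counts (4.93 ± 1.03), and lowered IL1B (-2.50 ± 0.18). The interaction with treatment was called for SOCS3 (-2.73 ± 0.34), OSMR (-0.99 ± 0.23) and STAT3 with STAT3i. In ETH YAPi raised IL6R (1.75 ± 0.21) and IL1B (1.00 ± 0.21), JUNBi raised LIFR (1.73 ± 0.30) and lowered IL1B (-1.77 ± 0.33), and STAT3i lowered only STAT3 (-1.88 ± 0.17). In the first MDA-MB-231 set, beside the same 24.4% to 35.6% over all genes, IL1B (-2.59 ± 0.38 with YAPi to -1.49 ± 0.23 with YAPi_TAZi) and LIF (-0.90 ± 0.19 with YAPi to -2.12 ± 0.18 with YAPi_TAZi) fell with all 4 knockdowns, and IL6 rose with TAZi (2.32 ± 0.15) and TEADi (1.68 ± 0.20), as IL6R did with TEADi (2.54 ± 0.49).

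Likeness to other genes was described by the correlation of log2(TPM + 1) over the 20 ER-Src libraries, among the 11425 genes whose counts averaged 50 or more. These libraries share 10 groups, so the values describe group differences as well as libraries. C1R was most like SAA2 and SAA1, the acute-phase serum amyloid genes (Pearson r = 0.961 and 0.946), and C1S most like SAA4 (0.966) and IL32 (0.963). CFB was nearest to TLCD2 (0.966) and IL1R1, the interleukin-1 receptor (0.965), C3 to SGPP2 (0.917) and ASS1 (0.906), and CFI to WBP1L (0.954) and PLSCR1 (0.946). Of the membrane regulators, CD46 was nearest to the ribosomal protein genes RPS27A (0.956) and RPS24 (0.949), CD59 to ANTXR2 (0.925) and HIF1A (0.893), and CD55 to CPD (0.893) and MAP3K20 (0.888). With log2(TPM + 0.1) the nearest gene differed for C1S, CFB and CFI.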

How the data were processed

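Total RNA was profiled with a ribosome-profiling library kit. By the authors' account, reads were trimmed, aligned with STAR to hg38 with GENCODE v30 (up to 20 alignments a read) and quantified with RSEM. Whether the identifiers of the deposited tables follow that release was not checked. The deposited tables hold, per library, expected counts and TPM (length-corrected abundance scaled to a common total) for 61471 identifiers. Of these, 746 (spike-ins, phiX and numeric identifiers, up to 0.109% of counts) were left out, and 60725 Ensembl genes were kept. Symbols came from GENCODE v44, which named 93.1% of them. Positions and overlaps came from GENCODE v44 on GRCh38, and start regions from RefSeq.

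Expected counts were rounded and each comparison was fitted on its own groups with DESeq2 1.42.0 at default settings, following the authors' separate runs, and a gene was called at a Benjamini-Hochberg adjusted p under 0.01. The comparison of each knockdown of the first MDA-MB-231 set with the other 3 carried the replicate number as a block. DESeq2 fell back from its parametric to a local dispersion trend for YAPi_TAZi in that set. The fitting script was tested on simulated counts with known fold changes. The alternatives were edgeR 4.0.16 (quasi-likelihood), TMM size factors, a mean count of at least 10, effective length offsets, all groups in one fit, the replicate block or its absence, the Ctrli libraries of both sets, and each library left out in turn. Where a fit left 1 library in a group, that library was assumed to vary like the others.

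The 8 genes and all gene lists were chosen with earlier results of these data known. Named besides the 8 genes were, for each family of comparisons, up to 4 called genes with the largest change and a mean normalized count of at least 20 from the other complement genes and from the inducers, the siRNA targets, and the 2 genes most correlated with each of the 8. The replicate numbers of the titles are not said to mark a shared culture. Same-numbered libraries deviated together among the set 1 knockdowns (correlation of 0.78 to 0.82) and, more weakly, in the 4 groups of the JUNBi interaction (0.11 to 0.53), and outside the comparison among set 1 knockdowns the block is an alternative. One item withheld for evaluation is not reported here, though it stays in the fits and counts. Reads were counted without molecular identifiers, and depth set the precision: the 8 shallow libraries held 1411300 to 2784553 counts.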

Additional observations from a re-analysis of the deposited data

Results flagged for a closer look

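CFB was the only one of the 8 genes for which a knockdown changed the tamoxifen response at the threshold, with a TAZi interaction of 1.03 on the log2 scale (DESeq2 adjusted p = 0.00013), a call lost with edgeR (0.068).

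For several genes every knockdown library lay, in normalized counts, on one side of its Ctrli libraries in ER-Src cells and on the other side in MDA-MB-231 cells. In TPM the libraries overlapped Ctrli for CFB with TAZi in ETH, for C1R with JUNBi in MDA-MB-231 and for CD59 with STAT3i in TAM. These differences between the lines were not tested, and in the first MDA-MB-231 set they also carry the gap in depth between Ctrli and knockdown libraries. CFB differed in this way with YAPi, at a fitted log2 fold change of 1.76 in TAM against -2.42 in MDA-MB-231. With TAZi it was at 1.18 in TAM and 0.13 in ETH against -2.52, and with JUNBi at 1.06 and 0.80 against -0.35. C1R was at 0.77 in TAM and 1.20 in ETH with TAZi against -0.98, and at 0.47 and 1.12 with JUNBi against -0.48. C3 was at 1.30 in TAM and 1.30 in ETH with JUNBi against -0.20. CFI was at 0.18 with TAZi in TAM against -1.54, the latter on fewer than 3 normalized counts a library, and CD59 was at -0.30 with STAT3i in TAM against 0.18. Of the MDA-MB-231 values, only those of CFB with YAPi and TAZi were called.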

How the results depend on the processing

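Of 184 fitted results for the 8 genes 44 were called, 21 of them in every setting with an adjusted p, and 23 were lost in some setting. Calls of the 8 genes were 7 for tamoxifen in Ctrli cells (6 without any 1 library), 17 for knockdowns in TAM (11 to 17), 10 for knockdowns in ETH (2 to 11), 1 for interactions (0 to 2), 8 in the first MDA-MB-231 set (5 to 9), 1 among its knockdowns (0 to 1) and 0 in the second set (0 to 0). Calls of the other complement genes, in the same order, were 5 (2 to 3), 13 (5 to 13), 6 (0 to 7), 0 (0 to 1), 21 (9 to 21), 1 (0 to 1) and 1 (0 to 1). With edgeR the ETH knockdown calls of the 8 genes went from 10 to 5, the interactions from 1 to 0, and the other complement genes called among the knockdowns of the first set and in the second set from 1 to 0 each. Interaction calls of the 8 genes were 2 with TMM size factors, with all groups in one fit and with a mean count of at least 10. All groups in one fit gave 10 other complement genes in ETH and 1 among interactions, as did effective length offsets and the count filter for interactions, while TMM size factors, the filter and no replicate block gave 2 among the knockdowns of the first set. In that set effective length offsets left 4 calls of the 8 genes, and the Ctrli libraries of both sets left 3, with 2 other complement genes there and 0 in the second set. With those controls C3 turned to -0.59 with YAPi, -0.62 with TAZi, -0.19 with YAPi_TAZi and -0.066 with TEADi, where the Ctrli libraries of the sets differ in C3. Elsewhere the cause was not tested.

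Fitted with a replicate block, the 8 genes had 6 calls for tamoxifen, 15 for knockdowns in TAM, 8 in ETH, 3 for interactions and 7 in the first MDA-MB-231 set, and the other complement genes had 3 for tamoxifen and 1 for interactions. The calls lost with the block were CD46 for tamoxifen (DESeq2 adjusted p = 0.0233), CFI and CD55 for STAT3i in TAM (0.0471 and 0.0151), CFB for STAT3i and C1S for TAZi in ETH (0.0154 and 0.0122) and C1R for TEADi (0.0656), and those gained were the interactions of CFB with YAPi (3.4e-08) and CD55 with STAT3i (0.00188). No other call of the 8 genes changed. Same-numbered libraries correlated at -0.05 to 0.41 in the ER-Src comparisons of 2 groups, at -0.21 to 0.60 among the 4 groups of an interaction (0.11 to 0.53 for JUNBi, the only interaction with every pair over 0.1) and at -0.06 to 0.01 between Ctrli and knockdowns of the first set, and whether they share more than a number was not settled. The second set shares none with its Ctrli, so no block was fitted there.

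Calls over all genes moved as well. With edgeR they went from 470 to 195 for TAZi in TAM, and in ETH from 739 to 491 for TAZi, from 37 to 0 for STAT3i and from 421 to 1 for JUNBi. The edgeR counts for interactions were 15 against 78 (YAPi), 5 against 71 (TAZi), 56 against 221 (STAT3i) and 0 against 46 (JUNBi), those among the knockdowns of the first set 0 against 21, 1 against 34, 9 against 108 and 46 against 198 for YAPi, TAZi, YAPi_TAZi and TEADi, and those in the second set 0 against 272 (JUNBi) and 0 against 10 (STAT3i). The block took tamoxifen from 976 to 619, YAPi, TAZi and STAT3i in TAM from 1550, 470 and 1167 to 770, 177 and 655, YAPi, TAZi and STAT3i in ETH from 1713, 739 and 37 to 1122, 404 and 11, the JUNBi interaction from 46 to 100, and YAPi, TAZi and TEADi in the first set from 4049, 5822 and 4682 to 2555, 2743 and 2955. Effective length offsets gave 12 for STAT3i in ETH, 120 for the TAZi interaction, 3827 for TAZi and 4115 (from 6792) for YAPi_TAZi in the first set, and 13, 17 and 103 for YAPi, TAZi and TEADi among its knockdowns. TMM gave 17 for STAT3i in ETH. All groups in one fit gave 1752 for JUNBi in ETH, 48, 19 and 128 for the YAPi, TAZi and JUNBi interactions, and 907 and 23 for JUNBi and STAT3i in the second set. Controls of both sets gave 1222, 1183, 1651 and 1502 for YAPi, TAZi, YAPi_TAZi and TEADi, and 3 and 1 for JUNBi and STAT3i. The median log2 change over all genes in the second set with STAT3i was -0.10. The depth of the first-set knockdowns, 1411300 to 2784553 counts, limits C1S and CFI there, and 2 libraries a group limit every test.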
